A study of Mus musculus with 6 samples.

Results

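The 10 genes described here encode transcription factors that are linked to the making of glia: the nuclear factor I family (Nfia, Nfib, Nfic and Nfix) and the regulators Prdm16, Zbtb20, Hopx, Rorb, Stat3 and Foxo1. They were taken as a list of symbols by a rule that sets no threshold on measured values, though with earlier results of these data known, and all 10 were found among the 29267 genes of the expression tables. All 10 passed the filter on low counts. RNA was sequenced from mouse neural stem cells of strain OG2 at passage 8, kept as stem cells (NSC) or after differentiation (labelled D2). Each state held 1 control library, 1 library with naloxone, which blocks opioid receptors, and 1 library with DAMGO, a peptide that activates the mu opioid receptor. The labels give no dose, no replicate culture and no animal age. With 1 library per group, the error of the state difference came from how that difference varied between the 3 ligand conditions, since state and ligand were fitted together. Nothing in the labels says that the 6 libraries came from separate cultures, so the p-values speak of these libraries and their spread may be technical.

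Nuclear factor I proteins bind DNA as dimers and are best known in the nervous system for moving radial glia and neural stem cells from making neurons to making astrocytes. Nfia and Nfib act early in that switch, and Nfix is a regulator of later progenitors and of stem cell quiescence. Stat3 carries signals of the LIF and CNTF family of cytokines to astrocyte genes. Zbtb20 promotes astrocyte formation, Prdm16 is a chromatin regulator of radial glia and adult stem cells, and Hopx marks radial glia and quiescent stem cells. Rorb is an orphan nuclear receptor of cortical neurons and glial lineages, and Foxo1 is an insulin-sensitive member of a family that preserves neural stem cells.

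The promoters of Prdm16 and Foxo1 are shown because Prdm16 changed most with state and Foxo1 was the member that set the D2 control apart from both D2 ligand libraries. Each is the 250 bases before the RefSeq start (GRCm38.p6, the build mm10), on the gene's strand, and capitals mark the core TTGGC that nuclear factor I proteins recognise. Prdm16 is on the minus strand at chr4:154636874-154637123 and Foxo1 on the plus strand at chr3:52268087-52268336.
Prdm16: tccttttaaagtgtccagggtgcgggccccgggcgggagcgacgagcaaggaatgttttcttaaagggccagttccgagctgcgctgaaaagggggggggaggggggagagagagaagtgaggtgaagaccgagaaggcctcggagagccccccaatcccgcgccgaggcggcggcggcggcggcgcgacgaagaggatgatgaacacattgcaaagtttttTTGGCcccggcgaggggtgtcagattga
Foxo1: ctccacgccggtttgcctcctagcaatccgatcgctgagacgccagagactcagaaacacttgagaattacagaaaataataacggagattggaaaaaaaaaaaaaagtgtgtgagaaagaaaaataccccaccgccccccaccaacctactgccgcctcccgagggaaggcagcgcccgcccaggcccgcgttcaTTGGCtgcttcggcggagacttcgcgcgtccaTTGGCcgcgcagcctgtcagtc
The core TTGGC, read on both strands, stood once in the Prdm16 window and at 2 places in the Foxo1 window. Of the 9 members with a RefSeq window (14 windows, since some have several starts), 6 held the core, in 7 windows or 50%, against 41.5% of all 32851 windows of the same length. The longer form TTGGCA, which contains the core, was in 0 of the 14 windows and in 12.3% of all windows. The STAT pattern TTCNNNGAA was in 1 window each of Nfic and Nfix (7.02% of all windows), and the FOXO pattern TGTTTAC in 0 of the 14 (3.17% of all windows). These are matches of letters and were not tested as binding sites.

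The libraries held 8417074 to 13561237 expected counts. Astrocyte markers (Gfap, Aqp4, Slc1a3, Aldh1l1) summed to 413 to 429 TPM in NSC and 1770 to 1910 TPM in D2, and proliferation markers (Mki67, Top2a, Cdk1, Ccnb1) to 1960 to 2010 TPM in NSC and 157 to 200 TPM in D2. Markers of the oligodendrocyte lineage (Olig2, Sox10, Pdgfra, Cnp) summed to 897 to 941 TPM in NSC and 1510 to 1670 TPM in D2. Neuronal markers (Tubb3, Dcx, Rbfox3, Map2) summed to 538 to 547 and 634 to 701 TPM, and stem cell markers (Nes, Sox2, Pax6, Vim) to 5280 to 5480 and 2850 to 3040 TPM. Such sums follow the most abundant genes. In mean TPM, Nes (668 in NSC, 147 in D2) and Vim (4330, 2220) were lower in D2, while Sox2 (343, 533) and Pax6 (38.2, 53.7) were higher. Map2 (524, 518) held most of the neuronal sum, while Tubb3 (14.3, 126), Dcx (2.69, 20.1) and Rbfox3 (1.37, 4.31) were higher in D2. Olig2 (853, 1020) outweighed Sox10 (0.487, 23.2), Pdgfra (4.36, 126) and Cnp (60.1, 393). The D2 libraries thus carried RNA of several lineages, and in such bulk samples fewer cells of a type and less RNA per cell cannot be told apart. Ependymal markers (Foxj1, Pifo, Ccdc153, Tmem212) summed to 4.96 to 5.96 TPM in NSC and 21.3 to 24.3 TPM in D2, with Pifo and Tmem212 at 0 throughout. Endothelial markers (Pecam1, Cdh5, Kdr, Tek) reached at most 2.97 TPM and microglial markers (Aif1, Cx3cr1, Csf1r, Ptprc) at most 0.56 TPM. How far the shift between cell types contributed to the differences in the factors below was not tested.

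In D2 the nuclear factor I family exchanged its most abundant member, Prdm16 came on from near 0, and the other factors changed by less than 2-fold. Of the 10 members, 4 rose (Prdm16, Nfix, Foxo1 and Stat3) and 2 fell (Nfib and Rorb) when D2 was set against NSC (edgeR quasi-likelihood test over 13216 genes, adjusted p below 0.05). The same test called 40.0% of all genes higher and 39.8% lower, 79.8% in all, so the members were not called more often than other genes. Their median log2 fold change was 0.05, against 0.00 over all genes tested. Nfia, Nfic, Zbtb20 and Hopx did not pass. The CPM of the NSC and D2 libraries did not overlap for 5 members (82.2% of all genes tested) and the TPM for 4 (79.0%).

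**Figure D1:**
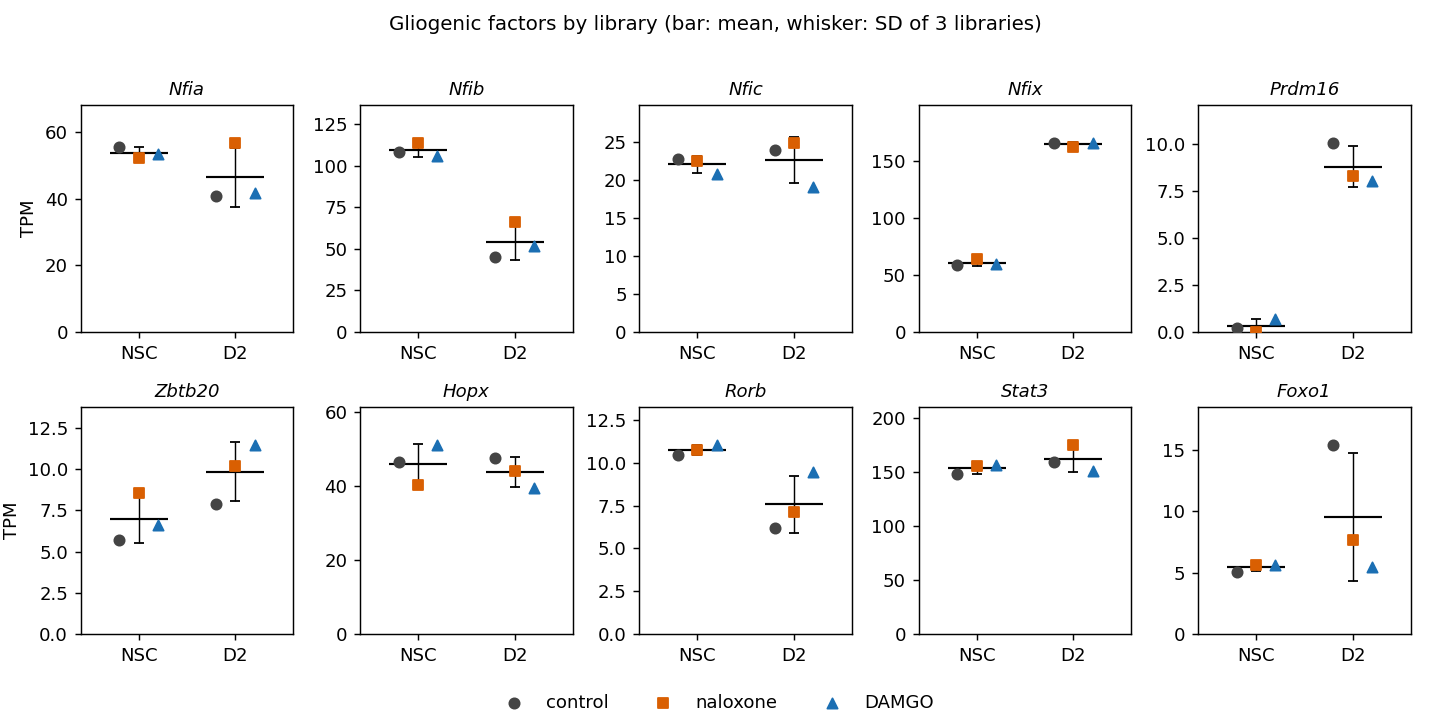
TPM of the 10 members (y axes, linear, from 0) in the 6 libraries, by state (x axis) and ligand (symbols). Lines are means and whiskers SDs of 3 libraries. Nfix and Prdm16 sit higher and Nfib and Rorb lower in all 3 D2 libraries, and the D2 control stands apart for Foxo1 at 15.4 TPM.

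Nfib was the most abundant nuclear factor I transcript in NSC and lost that place in D2. Its level was 108, 113 and 106 TPM in NSC (control, naloxone, DAMGO) and 45.1, 65.8 and 51.5 TPM in D2. Every D2 library lay below every NSC library. Nfib (chromosome 4, 82290173 to 82705750, mm10) fell with a log2 fold change of -1.02 (SE 0.07; edgeR, adjusted p = 3.02e-08), a ratio of 0.494. The fall was present with each ligand, at -1.22 in the controls, -0.83 with naloxone and -1 with DAMGO (log2 CPM).

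Nfix moved the other way. It stood at 58.7, 63.8 and 59.4 TPM in NSC and at 166, 163 and 166 TPM in D2. The D2 libraries stood close together, at 165 ± 1.71 TPM (SD, n = 3), and far from NSC. Nfix (chromosome 8, 84699876 to 84800344) rose 2.61-fold (log2 fold change 1.38, SE 0.05; edgeR, adjusted p = 2.94e-10). Within the 3 ligand conditions the log2 differences were 1.43, 1.29 and 1.44.

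The other family members did not pass the test for state. Nfia had 1213, 1578 and 986 counts in NSC and 1088, 1062 and 984 counts in D2, which gives 113 ± 4.14 CPM (SD, n = 3) and 115 ± 9.75 CPM. Its log2 fold change was 0.01 with a 95% interval of -0.12 to 0.14 (chromosome 4, 97772734 to 98118874; edgeR, adjusted p = 0.847). Nfic, the least abundant of the family, was at 22.7, 22.5 and 20.8 TPM in NSC and 23.9, 24.8 and 19.1 TPM in D2, and its log2 fold change of 0.08 had an interval of -0.07 to 0.23 (chromosome 10, 81396186 to 81455635; edgeR, adjusted p = 0.289). For both genes the interval lies within 0.23 of 0 on the log2 scale.

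As a share of the family's summed TPM, which sets transcripts of different length on 1 scale, Nfib made up 44.5% ± 0.487 (SD, n = 3) in NSC and 18.7% ± 2.45 in D2. Nfix made up 24.7% ± 0.714 in NSC and 57.4% ± 4.27 in D2. Nfia went from 21.9% ± 1.03 to 16.1% ± 1.94, and Nfic from 8.95% ± 0.296 to 7.85% ± 0.912. The shares of Nfia and Nfic were not lower in D2 when taken from the expected counts, which are not divided by length: Nfia held 16.9% to 17.3% in NSC and 17.1% to 18.5% in D2, and Nfic 6.84% to 7.38% and 7.12% to 8.10%. The ratio of Nfib to Nfix TPM was 1.78 to 1.85 in the NSC libraries and 0.272 to 0.405 in the D2 libraries. The family sum was 246 ± 6.17 TPM in NSC and 288 ± 19.2 TPM in D2, so the composition differed far more than the total. Among the D2 libraries the one with naloxone had the highest share of Nfib, 21.2%, and the lowest share of Nfix, 52.5%.

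**Figure D2:**
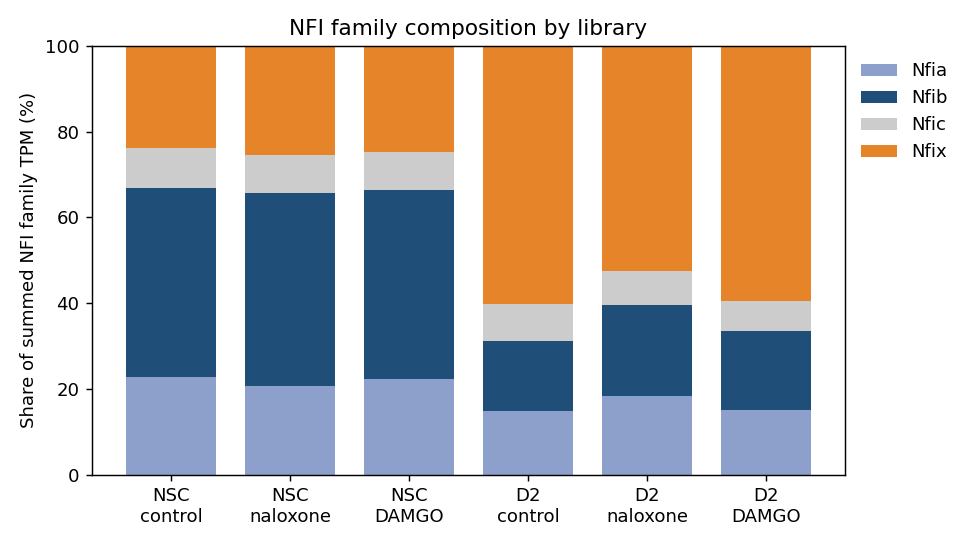
Share of the summed TPM of the nuclear factor I family (y axis, percent) held by each gene in each of the 6 libraries (x axis). Nfib holds 44.2% to 45.0% in NSC and 16.4% to 21.2% in D2, and Nfix 23.9% to 25.3% and 52.5% to 60.1%.

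Prdm16, which encodes a zinc finger methyltransferase, was near the limit of detection in NSC and present in all D2 libraries. Rounded to whole numbers it had 3, 1 and 3 counts in NSC and 336, 215 and 232 counts in D2. Summed over a state that is 7 against 783 counts, a 135-fold ratio with an exact binomial 95% interval of 65.2 to 337, which covers counting error only. In D2 its level was 10.04, 8.31 and 8.02 TPM, highest in the control. Prdm16 (chromosome 4, 154316125 to 154636873) passed the edgeR test (log2 fold change 6.97, SE 0.23, adjusted p = 7.24e-11). The fitted value depends on how counts near 0 are treated, so the count ratio is the safer guide to size. Its paralogue Mecom had too few counts to be tested (at most 0.44 TPM).

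Hopx and Zbtb20 did not pass the test on read counts. Hopx, a small homeodomain protein that does not bind DNA, was at 46.6, 40.2 and 51.1 TPM in NSC and 47.6, 44.0 and 39.6 TPM in D2. The groups overlapped, and the log2 fold change was -0.07 with an interval of -0.31 to 0.16 (chromosome 5, 77086988 to 77115121; edgeR, adjusted p = 0.539). Zbtb20 had 619, 804 and 518 counts in NSC and 525, 578 and 517 counts in D2. In CPM that is 58.3 ± 1.18 against 59.4 ± 8.43, and the log2 fold change was 0.02 (interval -0.15 to 0.19; chromosome 16, 42875881 to 43642602; edgeR, adjusted p = 0.810). In TPM, in contrast, Zbtb20 read 5.72, 8.55 and 6.62 in NSC and 7.92, 10.2 and 11.5 in D2, and limma on log2(TPM + 1) called it higher in D2 (log2 fold change 0.45, adjusted p = 0.0246). Zbtb45, its paralogue, did not pass (0.16, SE 0.10).

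The difference between the scales follows the transcript length by which TPM divides. The deposited tables give each gene an average length weighted by its estimated isoforms, and for Zbtb20, with 21 transcripts in the tables, this was 22156, 15099 and 18744 bases in NSC and 14139, 14890 and 11050 bases in D2. Stat3, with 14 transcripts, went from 3805 ± 142 to 4296 ± 38 bases, and Nfia, with 8, from 4632 ± 236 to 5494 ± 465 bases. In all 3 genes the D2 lengths did not overlap the NSC lengths, with a narrow gap for Zbtb20 and Nfia. Among the 9 members with several transcripts these were the 3 without overlap, while 23.0% of the 9263 tested genes with several transcripts had none. The Nfia TPM of 40.8 in the D2 control and 41.8 in D2 with DAMGO, below the NSC range of 52.2 to 55.7, came with lengths of 5729 and 5794 bases. In D2 with naloxone the length was 4959 bases and the level 56.7 TPM. Isoform levels themselves are not analysed here.

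**Figure D3:**
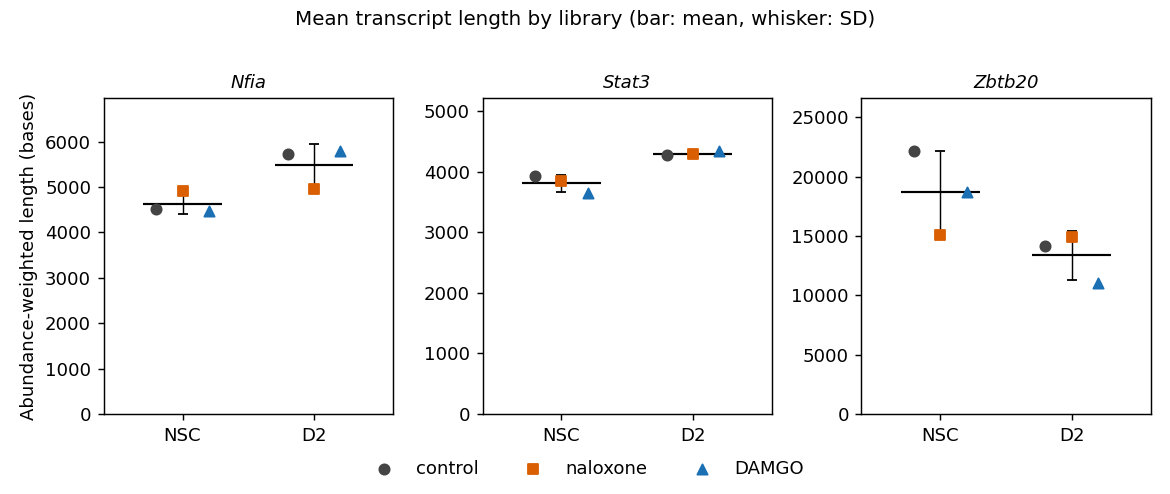
Abundance-weighted transcript length (y axes, bases, from 0) of Nfia, Stat3 and Zbtb20 in the 6 libraries, by state (x axis) and ligand (symbols), with mean and SD of 3 libraries. Nfia and Stat3 are longer and Zbtb20 shorter in D2.

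Stat3 was the most abundant of the 10 members in NSC, at 148, 155 and 157 TPM, and reached 159, 175 and 151 TPM in D2. In CPM every D2 library lay above every NSC library, 314 ± 17.5 against 264 ± 5.97, and Stat3 rose 1.19-fold (log2 fold change 0.25, SE 0.05; chromosome 11, 100885098 to 100939540; edgeR, adjusted p = 0.000470). In TPM the groups overlapped, and limma on log2(TPM + 1) gave a log2 fold change of 0.08 (adjusted p = 0.287). Stat3 thus changed little, and whether it passed depended on the division by length. Its paralogues Stat2 (-0.13, SE 0.08) and Stat5b (0.07, SE 0.06) did not pass. Stat4, Stat5a and Stat6 were not tested for lack of counts, with means of at most 0.883 TPM in either state.

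Components of the cytokine pathway that feeds Stat3 changed in both directions. Of 17 tested genes of 22 listed, 10 rose and 5 fell, where 40.0% of all genes tested rose and 39.8% fell. The median log2 fold change was 0.31 against 0.00 over all genes. The cytokine Lif fell from 36, 39 and 32 counts in the NSC libraries to 1, 1 and 2 counts in D2 (edgeR, adjusted p = 2.59e-06). Cntf, a cytokine of the same family, fell from 8.52 ± 1.02 to 1.17 ± 0.351 TPM (edgeR, adjusted p = 1.02e-05). The cytokine Ctf1 rose from 0.620 ± 0.159 to 3.15 ± 1.23 TPM (edgeR, adjusted p = 0.000522). The receptor subunit Cntfr rose (log2 fold change 1.09, SE 0.06), from 54.6 ± 0.880 to 116 ± 7.65 TPM, and the phosphatase Ptpn11 rose slightly (0.20, SE 0.05). The receptor subunit Lifr, named after its values were seen, fell (-0.54, SE 0.06; edgeR, adjusted p = 2.85e-06), from 29.1 ± 2.39 to 19.5 ± 1.72 TPM. Both cytokines and receptor subunits thus included genes that rose and genes that fell.

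Rorb fell with state and differed among the D2 libraries. It was at 10.5, 10.7 and 11.02 TPM in NSC and at 6.16, 7.11 and 9.43 TPM in D2, all below NSC. The log2 fold change was -0.60 (SE 0.12; chromosome 19, 18930605 to 19111196; edgeR, adjusted p = 0.000456). The fall was steepest in the controls, at -0.98, and smaller with naloxone, -0.63, and DAMGO, -0.22. Rora also fell (-0.49, SE 0.12; edgeR, adjusted p = 0.00242), from 7.43 ± 0.546 to 4.33 ± 1.00 TPM. Of the 6 tested clock genes on which ROR and REV-ERB receptors act or to which they belong, 2 rose and 2 fell, where 79.8% of all genes were called (median log2 fold change 0.16 against 0.00). Arntl, whose promoter is a textbook target of ROR receptors, rose from 17.6 ± 0.991 to 51.6 ± 3.17 TPM, and Nfil3, a repressor, rose slightly (0.42, SE 0.13). Clock fell from 26.0 ± 0.871 to 6.22 ± 1.36 TPM, and Nr1d2, a REV-ERB receptor, from 27.0 ± 1.62 to 14.1 ± 0.953 TPM, while Cry1 was at 23.4 ± 0.913 and 25.4 ± 2.53 TPM and did not pass.

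Foxo1 owed its call for state to the D2 control. It was at 5.08, 5.63 and 5.58 TPM in NSC and at 15.4, 7.66 and 5.44 TPM in D2. The D2 control lay far above the other libraries, D2 with naloxone lay above NSC, and D2 with DAMGO lay within the NSC range. The edgeR log2 fold change was 0.73 (SE 0.22; chromosome 3, 52268336 to 52353221; adjusted p = 0.00852). Without both control libraries it was 0.21 (SE 0.13; edgeR, adjusted p = 0.146). Leaving out only the D2 control or only the NSC control also gave 0.21, and these are not separate checks. With 1 control gone, the other is alone at its ligand level, so the state difference rests on the naloxone and DAMGO pairs. DESeq2 on all 6 libraries gave 0.65 with an adjusted p of 0.203. The tables give Foxo1 a single transcript, so its length did not vary. Its paralogues rose more evenly: Foxo3 from 25.2 ± 1.52 to 41.6 ± 2.36 TPM (0.73, SE 0.06; edgeR, adjusted p = 1.51e-07) and Foxo4 from 19.1 ± 0.796 to 49.3 ± 1.46 TPM (1.36, SE 0.07; edgeR, adjusted p = 2.82e-09). Foxo6, the least abundant of the family, had a log2 fold change of 0.66 (SE 0.29) that missed the threshold at an edgeR adjusted p of 0.0507.

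Of 14 genes listed as FOXO targets, 8 rose and 2 fell in D2, against 40.0% and 39.8% of all genes, with a median log2 fold change of 0.79 against 0.00. Txnip, an inhibitor of glucose uptake and thioredoxin, rose from 8.45 ± 1.72 to 74.4 ± 15.5 TPM. Pik3ip1, an inhibitor of PI3 kinase, rose from 12.1 ± 2.15 to 104 ± 5.80 TPM, Sesn3, a stress-induced regulator of mTORC1, from 45.5 ± 1.65 to 222 ± 10.6 TPM, and the mitophagy receptor Bnip3 from 11.6 ± 1.39 to 43.9 ± 3.82 TPM. Cat, the catalase gene and the most abundant of the list with Sesn3, rose from 85.1 ± 9.80 to 257 ± 13.5 TPM. The genes that fell were Insr (-0.33, SE 0.06) and Cited2 (-0.28, SE 0.11), and only 1 of the list fell in the DESeq2 fit or when any 1 library was left out.

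**Figure D4:**
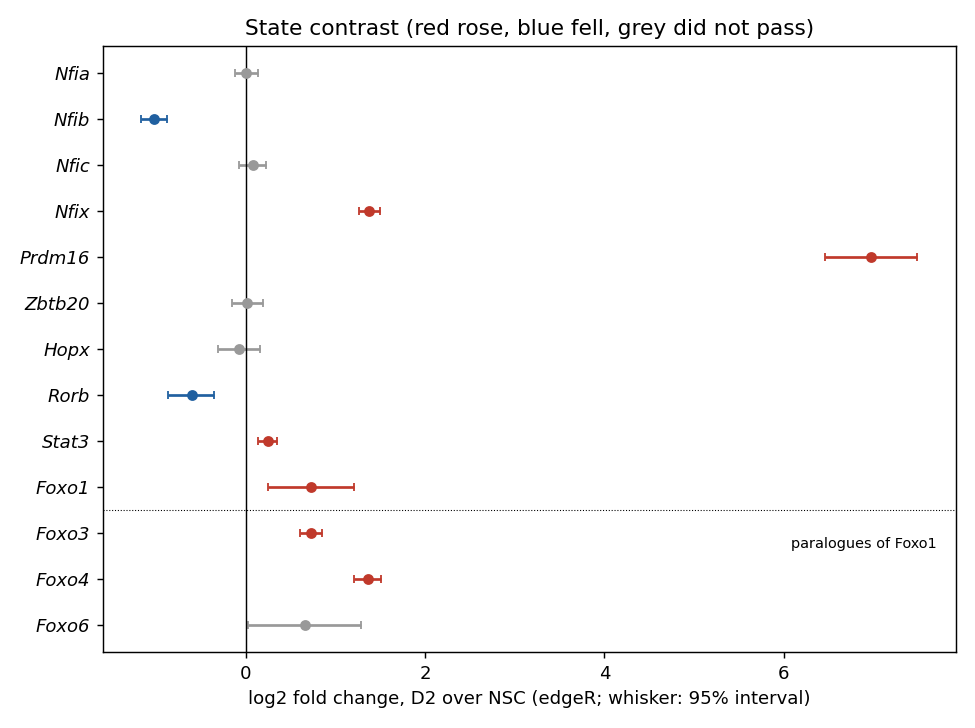
edgeR log2 fold change of D2 over NSC (x axis) with 95% intervals for the 10 members and, below the dotted line, the Foxo1 paralogues Foxo3, Foxo4 and Foxo6 (y axis). Prdm16 at 6.97 and Nfix at 1.38 lie furthest above 0 among the members and Nfib at -1.02 furthest below. The interval of Foxo1 (0.25 to 1.21) is wider than that of Foxo3 or Foxo4.

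Other regulators of the switch to gliogenesis, and astrocyte genes used as its readouts, gave the setting for these changes. Of 22 tested regulators of 24 listed, 13 rose and 6 fell, where 79.8% of all genes were called in either direction (median log2 fold change 0.35 against 0.00). The Notch target Hes5 rose from 32.4 ± 2.69 to 555 ± 25.5 TPM, Sox8 from 182 ± 10.1 to 529 ± 17.4 TPM and Lhx2 from 61.9 ± 2.34 to 157 ± 9.74 TPM. The maintenance methyltransferase Dnmt1 fell from 253 ± 5.87 to 61.2 ± 1.6 TPM. Olig1 (0.79, SE 0.04) and Olig2 (0.25, SE 0.05), factors of the oligodendrocyte lineage and the most abundant of the list, rose as well. All 13 astrocyte readouts rose, against 40.0% of all genes, with a median of 2.95. Among them Mmd2, described as a target of Nfia and Sox9, rose from 5.03 ± 0.238 to 277 ± 3.75 TPM, and Gfap, the astrocyte filament and a classical target of both Stat3 and nuclear factor I, from 1 to 3 counts in NSC to 70 to 96 counts in D2. The water channel Aqp4 rose from 0.530 ± 0.317 to 20.4 ± 2.47 TPM, Aldoc from 101 ± 6.09 to 1410 ± 27.8 TPM, the transporter Slc1a3 from 404 ± 5.79 to 1720 ± 85.4 TPM and the lipid carrier Fabp7 from 5180 ± 45.4 to 8660 ± 556 TPM. Each regulator and readout given with a value here passed the edgeR test, with an adjusted p of at most 0.000599.

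Over both states together, 0 of the 10 members passed the edgeR test for naloxone against control, for DAMGO against control or for naloxone against DAMGO. The same tests called 0.0151%, 0.0151% and 0.0303% of all genes. At an unadjusted p under 0.05 there were 3 members for naloxone, 2 for DAMGO and 0 for their difference, against 2.22%, 2.40% and 2.12% of all genes, and DESeq2 called 0 members in each. Both ligand contrasts share the control libraries. The 3 at the unadjusted level for naloxone were Nfib (0.18, SE 0.08), Zbtb20 (0.21, SE 0.09) and Prdm16 (-0.40, SE 0.18). For DAMGO they were Rorb (0.42, SE 0.14) and Foxo1 (-0.79, SE 0.27), which were called without the NSC control (edgeR, adjusted p = 0.00541 and 3.74e-09), without the NSC library with DAMGO (0.0215 and 0.00720) or with no filter on low counts (0.0269 and 1.67e-08). The median half-width of the 95% interval over the members was 0.19 for naloxone and 0.20 for DAMGO on the log2 scale. Without the D2 control library the Foxo1 log2 difference was 0.25 for naloxone and 0.02 for DAMGO. The Rorb difference for DAMGO was 0.18 when the D2 control was left out and 0.16 when the DAMGO-treated D2 library was. Each of these fits with a library left out has 1 library on a side of the contrast.

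Within NSC the members barely differed between ligands in CPM. A library was counted as apart from its control when a gene was at least 25% above or 20% below it in CPM. There was 1 of 10 with naloxone, Prdm16 with 1 against 3 counts, and 0 of 10 with DAMGO. Of all genes tested 10.7% and 11.7% passed that limit, and of the 8282 genes of at least 20 CPM, to which 9 of the members belong, 0.845% and 1.16%. These comparisons rest on 2 libraries each and have no replicate check. For Stat3 the ratio was 1.03 with naloxone (95% counting interval 0.978 to 1.08) and 0.982 with DAMGO (0.930 to 1.04). For Nfib the ratios were 1.00 (0.962 to 1.04) and 0.973 (0.930 to 1.02).

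Within D2 more members stood apart. Past the same limit there were 5 of 10 with naloxone (Nfib, Zbtb20 and Rorb higher, Prdm16 and Foxo1 lower) and 3 of 10 with DAMGO (Rorb higher, Prdm16 and Foxo1 lower). Of all genes tested 18.0% and 16.3% passed, and of genes of at least 20 CPM 6.77% and 4.41%. Which members passed depended in part on the scale. On log2(TPM + 1) Nfia also passed with naloxone (log2 ratio 0.46) and Zbtb20 with DAMGO (0.48). Rorb with naloxone and Prdm16 with either ligand did not pass on that scale. The D2 control library is shared by both comparisons, so Prdm16, Rorb and Foxo1 standing on the same side in both is no separate observation. Foxo1 had 622 counts in the D2 control, 252 with naloxone and 192 with DAMGO, ratios of 0.488 (0.420 to 0.566) and 0.356 (0.301 to 0.419). Rorb had 227, 245 and 352 counts, ratios of 1.3 (1.08 to 1.56) and 1.79 (1.51 to 2.12). Nfib was 1.31 times the control with naloxone (1.23 to 1.40) and 1.13 times with DAMGO (1.06 to 1.21). Zbtb20 was 1.33 times (1.18 to 1.49) and 1.14 times (1.00 to 1.29), and Prdm16 0.771 times (0.646 to 0.917) and 0.797 times (0.671 to 0.944). For Nfix, the abundant family member in D2, the ratios were 0.928 (0.879 to 0.980) and 0.961 (0.911 to 1.01). The intervals hold counting error only, so whether such differences exceed the spread between cultures was not tested.

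**Figure D5:**
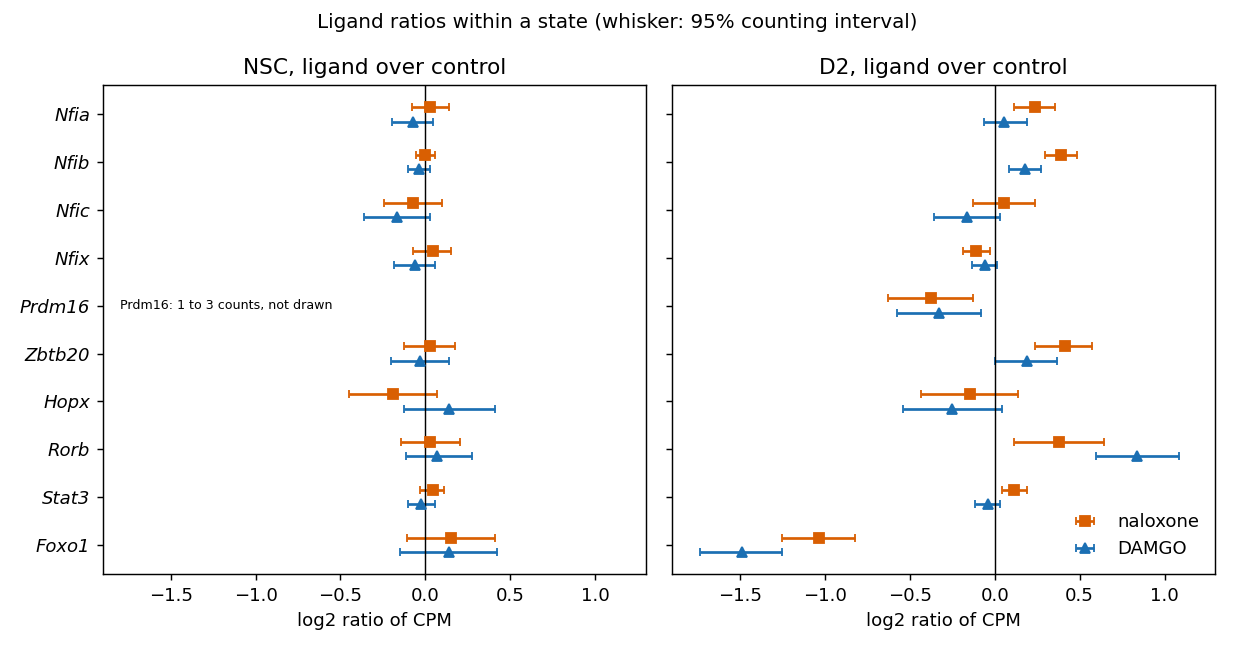
log2 ratio of CPM, ligand library over the control library of the same state (x axes), for the members (y axis) with 95% counting intervals, naloxone as squares and DAMGO as triangles. Prdm16 is not drawn in NSC, where it had 1 to 3 counts. The NSC ratios lie near 0, and in D2 Foxo1 lies at 0.488 and 0.356 of the control.

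Foxo1 stood higher in the D2 control than in either D2 ligand library. Foxo1 CPM in the D2 control was 2.05 times that of the higher and 2.81 times that of the lower D2 ligand library, while the NSC control was 0.902 times the higher NSC ligand library. At least 2-fold above both ligand libraries in D2 were 0.0241% of genes of at least 20 CPM (2 of 8282) and 0.333% of all genes tested. Foxo1 is 1 of these 2 and the limit was set after values were seen, so the shares do not test its rarity. For the NSC control those shares were 0.0362% and 0.129%. The other abundant gene was Fn1, the fibronectin gene, at 55.4, 11.1 and 10.8 CPM in D2 and 24.1, 28.5 and 24.1 CPM in NSC. It was named after its values were seen. Fibroblast and pericyte markers (Pdgfrb, Col1a1, Dcn, Lum; all 4 detected) summed to 6.45 TPM in the D2 control, to 4.03 TPM with naloxone (Lum at 0) and 3.49 TPM with DAMGO (Dcn and Lum at 0), and to 0.390 to 2.84 TPM in NSC. Pdgfrb was even across the D2 control, naloxone and DAMGO libraries (3.10, 3.57 and 3.24 TPM). Col1a1 had 49, 7 and 6 counts there, and Dcn 11, 1 and 0. The NSC library with naloxone also had 49 Col1a1 and 6 Dcn counts, with Foxo1 at 5.63 TPM. The part of these markers in the Foxo1 difference was not tested. Of the FOXO targets 1 of 14, Gadd45a, was past the limit of 20% below with each ligand (60 and 58 counts against 112), and 0 were higher. Past the limit in either direction were 18.0% of all genes tested with naloxone and 16.3% with DAMGO. The medians of the FOXO targets were 0.00 and -0.07 on the log2 scale. Foxo3 was at 0.906 and 0.918 times the D2 control and Foxo4 at 0.947 and 1.01 times.

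Part of the reads of some members could also fit another gene. Expected counts were fractional in at least 1 library for Nfix, Prdm16, Rorb, Hopx, Stat3 and Foxo1, which happens where reads are divided between features, and were whole in all 6 libraries for Nfia, Nfib, Nfic and Zbtb20. The library kit does not mark strand, so reads of an overlapping gene cannot be told from those of the member. Exons of E130114P18Rik, on the opposite strand, overlap those of Nfia, and that gene had 261 to 401 counts. Stat5a overlaps Stat3 with 3.35 to 18.9 counts, and the antisense gene Gm20402 overlaps Foxo1 with 0 to 5.74 counts. The other overlapping genes in the tables had at most 4.28 counts.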

How the data were processed

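The authors deposited 1 table per library with expected counts, TPM and lengths per gene, made with Bowtie and RSEM on mm10, per the submitters' processing notes. The sources used here do not give tool versions, annotation or filters. Per the labels' protocols, RNA was taken with Trizol and made into libraries with a TruSeq RNA kit from Illumina. The lengths are the deposited isoform-weighted ones, and FPKM was not used. Of 29267 identifiers, 28756 matched a GENCODE M21 symbol, and loci are from that annotation.

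Expected counts were rounded (a shift of at most 46.1 counts per library). The 13216 genes averaging 10 counts or more entered the fit, with TMM scaling. The model, with state and ligand as additive terms and 2 residual degrees of freedom, was run by glmQLFit and glmQLFTest (edgeR 4.0.16, R 4.3.3). p-values were adjusted by Benjamini-Hochberg over all genes tested. Comparisons within a state are CPM ratios with exact binomial 95% intervals, and the limit of 25% above or 20% below was applied with a prior count of 2. Alternatives were DESeq2 1.42.0, limma 3.58.1 on log2(TPM + 1) and log2(TPM + 0.1), other scalings and filters, and leaving out libraries. Scripts were tested on simulated data.

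Members and gene lists were chosen with earlier results of these data known. Named were all members, the paralogues and, per list, up to 4 called genes with the largest change and up to 2 of the most abundant; some genes under this rule are not reported here. Motifs, Fn1, the 2-fold excess rule for the D2 control, and the length comparison were chosen after values were seen. The lists held 22 cytokine and STAT3 genes, 24 gliogenic regulators, 13 astrocyte readouts, 14 FOXO targets, 7 clock genes and 13 paralogues, of which 9 paralogues were tested (4 rose, 1 fell). The upper limit that 0 counts allows is 3 counts, or 0.221 to 0.356 CPM by library. Intervals and floors cover counting error only.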

Additional observations from a re-analysis of the deposited data

How the results depend on the processing

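No paired analysis was possible because the labels give no replicate numbers for a replicate block; the additive model does match the states by ligand, and with state as the only term 4 members rose and 2 fell, as in the additive model. Of the state calls among the members, those of Prdm16, Nfix, Nfib and Rorb kept their direction and passed under every alternative run (scaling, filter, DESeq2, limma on TPM, state alone, each library or ligand pair left out). Foxo1 passed neither without both control libraries (log2 fold change 0.21, adjusted p = 0.146) nor with limma on log2(TPM + 1) (0.59, adjusted p = 0.0832). With 1 library left out, 3 to 4 members rose and 2 fell. Leaving out either library of a ligand pair rests the state difference on the other pairs, so both fits of a pair are not separate checks. For naloxone 1 member, Foxo1, fell with no filter on low counts (-0.52; edgeR, adjusted p = 0.00203), and its log2 difference was -1.14 without the NSC control. For DAMGO 1 rose (Rorb) and 1 fell (Foxo1) with no filter. A ligand contrast that loses 1 of its own libraries has 1 library on a side, so calls from such fits are not given. With the unfiltered genes the edgeR calls over all genes went from 2, 2 and 4 (naloxone, DAMGO, difference) to 45, 83 and 53. With limma on TPM they went to 0 each. The cause was not tested. In lists for state, a mean of at least 50 counts left 6 cytokine genes that rose and 3 that fell (fewer genes were tested), and 1 FOXO target fell with DESeq2, without both control, naloxone or DAMGO libraries, or with any 1 library left out (1 to 1). Clock genes that rose were 1 with DESeq2 or without both DAMGO libraries, and 1 to 2 with 1 library left out. Within NSC, 1 member passed the limit of 25% above or 20% below with DAMGO on log2(TPM + 1). With naloxone on that scale Zbtb20 passed, at a log2 ratio of 0.51, and Prdm16 did not. From expected counts, not divided by length, the shares of Nfia, Nfib, Nfic and Nfix in NSC were 17.1%, 59.2%, 7.07% and 16.6%, and those of Nfib and Nfix in D2 30.1% and 44.5%. With 1 library per group, depth limits mainly Prdm16 in NSC.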
